A study of Mus musculus with 12 samples.

Results

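The 10 genes of immature neurons and axon regrowth, Dcx, Tubb3, Stmn2, Dpysl3, Gap43, Sox4, Sox11, Tbr1, Atf3 and Sprr1a, were followed in mouse brain after traumatic brain injury (TBI) and after zileuton. Their symbols were matched to the Ensembl identifiers of both count tables, which found all 10 among the 35697 identifiers of the earlier table and the 55637 of the later one. The genes count as selected on their counts in both comparisons, since they were proposed with those results in view, and their own changes are given as a description and not as a test of the list. All mice were wild-type adult males of the C57BL/6J strain, and RNA came from brain, which the study describes as tissue around the contusion. TBI was made by controlled cortical impact, in which a piston strikes the exposed cortex, and sham mice had the surgery without the blow. A batch labelled 2018 holds 3 sham mice, labelled as controls, and 3 wild-type TBI mice at 7 days. A batch labelled 2022 holds 3 TBI mice at 7 days, whose labels name no vehicle, and 3 TBI mice given zileuton, an inhibitor of 5-lipoxygenase, injected daily into the peritoneum, with corn oil as solvent and a dose of 10 mg per kg. The source labels of the zileuton mice give 7, 8 and 9 days after injury, while their library names all give 7. The columns of the 2022 table could not be tied to single mice of a group, so those mice are called A, B and C, and the day of each zileuton column cannot be told.

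Newborn neurons carry a set of cytoskeletal proteins that keep microtubules movable while the axon grows, and transcription factors that switch on neuronal genes. In the adult brain some of these genes fall to a low level, and doublecortin-positive cells are found mainly in the niches that still make neurons. Other genes of the set, Tubb3 and Stmn2 among them, were abundant in the adult sham mice read here. Neurons of the peripheral nervous system turn a related programme on again when an axon is cut, led by stress-induced transcription factors, whereas most injured axons of the adult brain do not regrow.

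After TBI the 10 genes did not move as a block. Atf3 and Sprr1a, both known from injured peripheral neurons, were far higher in every TBI mouse, and Sox4 and Dpysl3 were moderately higher. Dcx, Stmn2 and Tbr1 were lower in every TBI mouse, and Tubb3, Gap43 and Sox11 overlapped between the groups. The groups did not overlap in 4 genes that were higher and 3 that were lower. Among the 19536 genes tested, 24.6% were higher and 19.8% lower without overlap, 44.4% in all. Of the 10 genes 7 reached an adjusted p-value under 0.05 (edgeR's quasi-likelihood test), against 28.0% of all genes tested, and 7 an unadjusted one, against 39.6%. Of the 7, Dpysl3 missed the adjusted threshold without sham mouse 2 (0.0933), sham mouse 3 (0.0904) or TBI mouse 3 (0.0641). Stmn2 missed it without sham mouse 1 (0.113), 2 (0.0848) or 3 (0.068) or TBI mouse 2 (0.0644), with scaling by library totals (0.0571) and with limma (0.0625 to 0.13). Dcx missed it with the trend in gene length removed (0.0505) and with limma on unfiltered log2(FPKM + 1) (0.0968), where FPKM are fragments per gene length and library total. With an equal-variance test on FPKM, adjusted in the same way, Tbr1 (0.0569), Dpysl3 (0.07) and Stmn2 (0.131) missed it. Nothing is read from these counts, because the genes were chosen with this contrast known. The median log2 fold change of the 10 genes was 0.02, equal to the median of 0.02 over all genes tested.

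**Figure D1:**
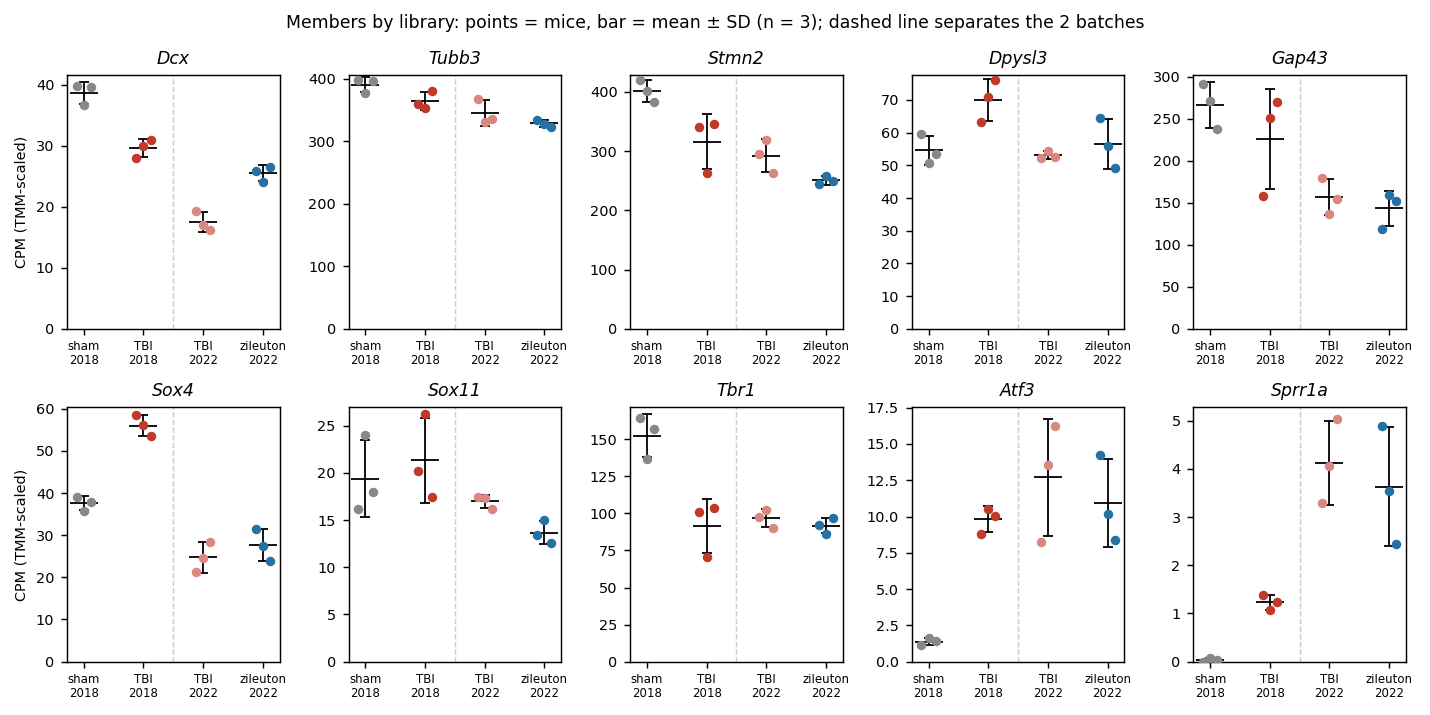
Expression of each gene in every library, in CPM, counts scaled to a common library total with edgeR's TMM factors, on a linear axis from 0; points are mice, and the long bar with caps is the mean ± SD of 3 mice. Atf3 and Sprr1a sit near 0 in sham mice and well above it in all 9 injured mice, while Dcx and Tbr1 are lower in the TBI mice of 2018 than in every sham mouse.

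Atf3 and Sprr1a changed most, and the bases just before their start sites are shown so that the letters can be read beside those changes. Atf3 encodes a stress-induced transcription factor of the ATF/CREB family, and Sprr1a encodes a small proline-rich protein, known both from the cornified envelope of skin and from regrowing axons. Each line gives the 250 bases before the RefSeq start site on the strand of the gene, in build GRCm38.p6. Of these, 7 bases in Atf3 and 14 in Sprr1a lie in an annotated exon of the gene itself. The Atf3 stretch lies inside the annotated span of Atf3, which also extends upstream of it. In capitals are ACGTCA, the core of the cyclic AMP response element, in Atf3 (chr1:191183334-191183583, minus strand), and TGANTCA, the AP-1 motif bound by Fos and Jun proteins, in Sprr1a (chr3:92485882-92486131, minus strand).
Atf3: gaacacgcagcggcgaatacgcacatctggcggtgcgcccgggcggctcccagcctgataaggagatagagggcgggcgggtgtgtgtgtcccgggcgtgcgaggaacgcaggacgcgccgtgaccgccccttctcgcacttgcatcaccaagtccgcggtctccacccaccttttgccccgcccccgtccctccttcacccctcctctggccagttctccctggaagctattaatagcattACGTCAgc
Sprr1a: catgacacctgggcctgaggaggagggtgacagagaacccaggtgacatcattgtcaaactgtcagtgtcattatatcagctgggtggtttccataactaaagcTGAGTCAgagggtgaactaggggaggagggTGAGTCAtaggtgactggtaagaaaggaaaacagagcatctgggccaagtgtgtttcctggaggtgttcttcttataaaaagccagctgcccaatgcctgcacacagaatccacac

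The Sprr1a stretch holds the AP-1 motif at 2 places and the Atf3 stretch holds the response element core at 1, near its end. The capitalised motifs do not overlap each other. Both strands were searched from 250 bases before to 50 bases after the start site in the RefSeq promoter table, which held 7 of the 10 genes. Stmn2, Gap43 and Dpysl3 are not in that table. Dcx has 2 windows there, and a gene was counted when any of its windows matched, whereas the share over all is per window. The AP-1 motif was in 1 of the 7 genes and in 7.81% of all 32851 windows, and the ACGTCA core was in 1 of 7 and in 7.51%. The CCAAT box (CCAAT) was in all 7 genes and in 37.4% of all windows. The E-box CAGCTG of proneural factors was in 3 of 7 (Sox4, Sox11 and Sprr1a) and in 16.3%, and the Sox core ACAATG was in 2 of 7 (Tubb3 and Sprr1a) and in 12.6%. The TATA box TATAAA was in 2 of 7 (Dcx and Sprr1a) and in 13.6%. These are matches of letters, with no reading of which factor binds there.

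Atf3 (ENSMUSG00000026628, chromosome 1, 191170296 to 191218039 on GRCm38, the build of every gene position here) stood at 1.11, 1.64 and 1.39 CPM in the sham mice and at 8.80, 10.5 and 10.1 CPM in the TBI mice. Every TBI library was several times above the highest sham library. The means were 1.38 ± 0.267 and 9.80 ± 0.901 CPM (SD, n = 3 each). On the log2 scale the fold change was 2.82 ± 0.20 (standard error, as after every ± beside a log2 fold change). Over all alternatives it ran from 1.79 to 2.94.

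Sprr1a (ENSMUSG00000050359, chromosome 3, 92483952 to 92485895) had 0, 3 and 2 counts in the sham mice and 68, 52 and 53 counts in the TBI mice. The gene was at the limit of detection in sham brain and clearly read in each TBI library. The pooled ratio was 34.1, with a 95% counting interval of 14.3 to 106. Small counts of 20 or fewer were even in 62.3% to 64.4% of cases in these libraries, a share that counting both reads of a pair would raise, and with counts divided by 2 the interval was 9.34 to 140. The fitted log2 fold change was 4.99 ± 0.61, and 5.65 without sham mouse 2, whose 3 counts are most of the sham total. Over the alternatives that held Sprr1a the value ran from 1.29 to 5.65.

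Sprr1a is also a gene of skin, so other genes of the cornified envelope and of keratinocytes were read beside it. Of 17 such genes 14 were in the table and 3 passed the expression filter, of which none passed the test. Lor, which encodes loricrin, had a log2 fold change of 0.10 (adjusted p = 0.599), and Krt10, a keratin of upper epidermis, one of 0.23 (adjusted p = 0.345; edgeR). The summed level of the list was 20.0 to 25.4 CPM in sham and 23.6 to 24.1 CPM in TBI mice.

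Among the microtubule genes, Dcx (doublecortin, ENSMUSG00000031285, chromosome X, 143855842 to 143933311), which bundles microtubules in migrating neuroblasts, was read at 39.7, 36.6 and 39.7 CPM in sham and 28.0, 29.9 and 31.0 CPM in TBI mice. All TBI libraries lay below all sham libraries. The means were 38.7 ± 1.77 and 29.6 ± 1.54 CPM (SD, n = 3 each) and the log2 fold change was -0.38 ± 0.081.

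Stmn2 (ENSMUSG00000027500, chromosome 3, 8509360 to 8561606) encodes stathmin-2, a neuronal protein that frees tubulin from microtubule ends and supports axon regrowth. Its level was 420.3, 402 and 383 CPM in sham and 340.2, 263 and 345 CPM in TBI mice, again with no overlap, and TBI mouse 2 was the lowest. The log2 fold change was -0.35 ± 0.11, and -0.23 without that mouse.

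Tubb3 (ENSMUSG00000062380, chromosome 8, 123411424 to 123422015), the neuronal beta-tubulin used to stain young neurons, had 398, 376 and 396 CPM in sham and 359.7, 353 and 380.4 CPM in TBI mice. One TBI library lay within the sham range, and the log2 fold change was -0.10 ± 0.071. Its coding sequence is close to that of other beta-tubulin genes, and how the counting placed shared reads is not given in the sources used here.

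Dpysl3 (ENSMUSG00000024501, chromosome 18, 43320984 to 43438286) encodes a collapsin response mediator protein that links guidance cues to the cytoskeleton. It stood at 59.5, 50.8 and 53.4 CPM in sham and 63.3, 70.8 and 76.0 CPM in TBI mice. The groups did not overlap, though the lowest TBI library came close to the highest sham library. The log2 fold change was 0.36 ± 0.094.

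Most of the closest paralogs of these genes did not pass the test. Of 13 tested, 2 rose and 2 fell at an adjusted p-value under 0.05 (16.8% of all genes were higher and 11.2% lower at that threshold; edgeR), with a median log2 fold change of -0.02. Tubb6, a beta-tubulin of many non-neuronal tissues, rose by 1.91 on the log2 scale, which is meant wherever a gene rose or fell by a number (adjusted p = 0.00197), from 3.92 ± 1.01 to 14.8 ± 6.01 CPM (SD, n = 3). Tubb2b, a beta-tubulin of developing neurons, rose by 0.79 (adjusted p = 0.0036), from 104 ± 20.8 to 179 ± 19.4 CPM. Crmp1, the relative of Dpysl3, fell by 0.34 on the log2 scale (adjusted p = 0.0253), and Stmn3, the relative of Stmn2, fell by 0.28 (adjusted p = 0.0482). Both falls were small and lost the threshold when a library was left out: the adjusted p of Crmp1 was 0.0636 without sham mouse 1, 0.0605 without sham mouse 3, 0.0656 without TBI mouse 1 and 0.0583 without TBI mouse 2. That of Stmn3 was 0.0806, 0.0816 and 0.111 without sham mouse 1, 2 or 3, and 0.0738 and 0.0971 without TBI mouse 1 or 2. Stmn1, a stathmin of dividing and young cells, missed the threshold at -0.36 (adjusted p = 0.0627), though no TBI library reached the sham range. It passed with DESeq2 (0.0121), without the expression filter (0.0244), with the length trend removed (0.0249) and without TBI mouse 3 (-0.51, adjusted p = 0.00616). Dpysl2, Dpysl4, Dpysl5, Stmn4, Tubb2a and Tubb5 lay between -0.16 and 0.10, and the sign of Dpysl5 and Tubb2a depended on the scaling.

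Gap43 (ENSMUSG00000047261, chromosome 16, 42248442 to 42340651) encodes a membrane protein of growth cones that adult cortex keeps making at synapses. It was read at 291, 271 and 237 CPM in sham and 158, 251 and 270.0 CPM in TBI mice. Only TBI mouse 1 lay below the sham range. The log2 fold change of -0.24 ± 0.18 became -0.035 without that mouse. TBI mouse 1 was also the highest for C1ql2, a marker of dentate granule cells, at 22.5 CPM against 5.56 and 3.62 CPM in the other TBI mice and 0.716 to 3.42 CPM in sham mice. Whether the dissections took different amounts of hippocampus was not tested.

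Of the transcription factors, Sox4 (ENSMUSG00000076431, chromosome 13, 28948919 to 28953713), which with Sox11 and Sox12 forms the SoxC group that turns on neuronal genes in postmitotic cells, was at 39.1, 35.8 and 38.0 CPM in sham and 58.4, 56.1 and 53.5 CPM in TBI mice. The groups stood well apart. The means were 37.6 ± 1.67 and 56.0 ± 2.45 CPM (SD, n = 3 each), which gave 0.57 ± 0.076 on the log2 scale. An exon of Gm26735 on the opposite strand overlaps Sox4, and without stranded counting their reads cannot be told apart.

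Sox11 (ENSMUSG00000063632, chromosome 12, 27334264 to 27342574) did not follow Sox4, with 16.2, 24.1 and 17.9 CPM in sham and 20.2, 26.3 and 17.5 CPM in TBI mice. The ranges overlapped almost fully, and mouse 2 was the highest of each group. The log2 fold change was 0.14 ± 0.18 and turned to -0.041 without TBI mouse 2. Sox12, the remaining SoxC gene, lay at -0.045 (adjusted p = 0.807), and at 0.0086 with scaling by library totals.

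Tbr1 (ENSMUSG00000035033, chromosome 2, 61802930 to 61814114), a T-box factor of glutamatergic neurons of the cortex, most of all in deep layers, stood at 164, 137 and 157 CPM in sham and 101, 70.7 and 103 CPM in TBI mice. All TBI libraries were below all sham libraries, and TBI mouse 2 was the lowest. The means were 153 ± 14.3 and 91.8 ± 18.3 CPM (SD, n = 3 each), which gave -0.73 ± 0.14 on the log2 scale.

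**Figure D2:**
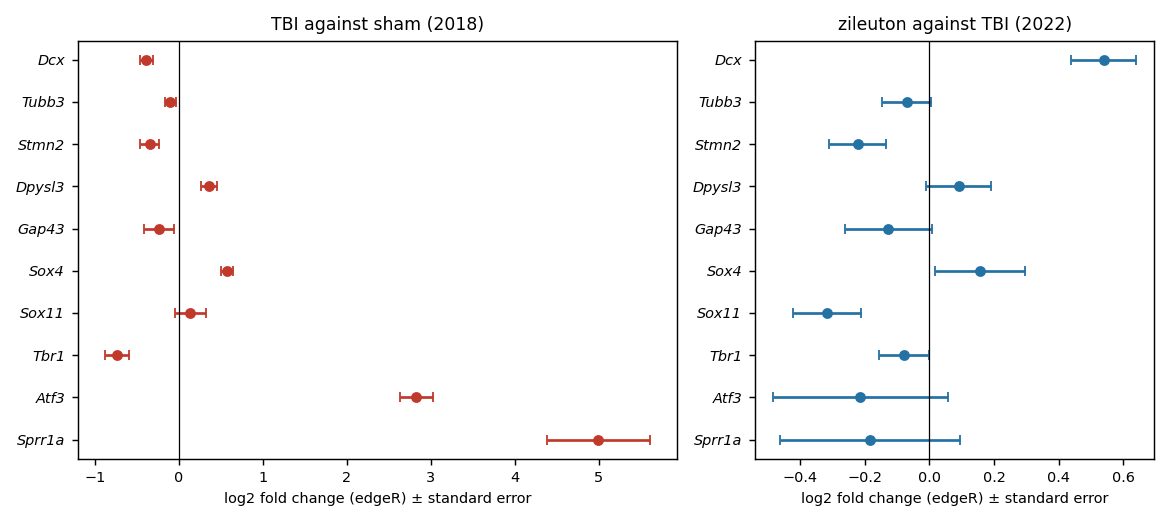
Log2 fold change of each gene with its standard error from edgeR, for TBI against sham (left) and zileuton against TBI (right), 3 mice against 3 in each; the horizontal scales differ. After TBI the values run from -0.73 for Tbr1 to 4.99 for Sprr1a, while with zileuton they run from -0.32 for Sox11 to 0.54 for Dcx.

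The levels of different genes can be set side by side only per length. In sham mice Tubb3 led at 205 ± 5.94 FPKM (fragments per length and library total; SD, n = 3), followed by Gap43 at 172, Stmn2 at 70.4 and Tbr1 at 27.3 FPKM, with no overlap between neighbours. Dpysl3 (8.10 FPKM) and Sox4 (7.70 FPKM) overlapped, as did Dcx (3.00 FPKM) and Sox11 (2.29 FPKM), and Atf3 (0.63 FPKM) and Sprr1a (0.04 FPKM) came last. In TBI mice Atf3, at 4.63 FPKM, stood above Sox11 (2.62 FPKM) and Dcx (2.38 FPKM), whereas Sprr1a, at 1.55 FPKM, was still the lowest. Even after injury the 2 genes that rose most were therefore among the less abundant of the 10.

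Other genes of immature neurons were read beside the 10. Of 20 tested, 7 rose, 5 fell and 8 did not pass (edgeR, adjusted p under 0.05), where 16.8% of all genes rose and 11.2% fell, with a median log2 fold change of -0.0045. Draxin, a chemorepellent of growing commissural axons, rose by 1.75 (adjusted p = 0.0139), from 0.591 ± 0.253 to 1.99 ± 0.639 CPM (SD, n = 3). Igfbpl1, a gene of neuroblasts, rose by 1.73 (adjusted p = 0.00734), from 1.74 ± 0.678 to 5.80 ± 2.12 CPM. Calb2 (calretinin), a calcium-binding protein of young granule cells and of interneurons, rose by 1.32 (adjusted p = 0.0066). Cd24a, a surface protein of neuroblasts that leukocytes also carry, rose by 1.27 (adjusted p = 0.00401). Each of these 4 was higher in 3 of 3 TBI mice than in any sham mouse. The 5 that fell are named here after their values were seen, and none overlapped between the groups. Elavl2, Elavl4 and Elavl3, which encode RNA-binding proteins of neurons, fell by 0.69 (adjusted p = 0.000215), 0.62 (adjusted p = 0.00363) and 0.32 (adjusted p = 0.0208). Mllt11 fell by 0.42 (adjusted p = 0.00808), and Dclk1, the closest relative of Dcx, by 0.42 (adjusted p = 0.00701). Elavl3 missed the threshold without sham mouse 2 (0.0614) or 3 (0.0673) or TBI mouse 3 (0.0539), and Dclk1 with the length trend removed (0.0553).

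Of the 17 neurogenic transcription factors tested, 3 rose and none fell (16.8% and 11.2% of all genes), with a median of -0.06. Eomes, the T-box factor of intermediate progenitors that precedes Tbr1 in development, rose from 0.0888, 0.0432 and 0.189 CPM in sham to 0.833, 1.68 and 4.36 CPM in TBI mice. Its log2 fold change was 4.37 ± 0.74 (edgeR, adjusted p = 0.00286), 3.51 without TBI mouse 3 and 5.04 without sham mouse 3. Which cells of the injured tissue carried Eomes was not tested. Pax6, a factor of neural progenitors and astrocytes, rose by 0.75 (adjusted p = 0.00292). Sp8, a factor of interneuron progenitors, rose by 1.22 (adjusted p = 0.0287), and its adjusted p was 0.0533, 0.0964 and 0.0952 without sham mouse 1, 2 or 3 and 0.0866 without TBI mouse 3. Tbr1 and Eomes, near relatives, stood on opposite sides, and per length Eomes was at 0.559 FPKM in TBI mice against 17.0 FPKM for Tbr1.

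Tbr1 was read beside 18 other transcription factors of cortical layers. Of these, none rose and 5 fell (16.8% and 11.2% of all genes), with a median of -0.30. Mef2c fell by 0.67 (adjusted p = 0.0128), Sox5, a deep-layer factor, by 0.56 (adjusted p = 0.00372), and Etv1, another deep-layer factor, by 0.53 (adjusted p = 0.0129). The value of Tbr1 (-0.73) lay below those of Mef2c, Sox5 and Etv1.

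Mature neuron markers fell or did not pass the test. Of 19 tested, none rose and 9 fell (16.8% and 11.2% of all genes), with a median of -0.33. Snap25, a presynaptic protein, fell by 0.63 (adjusted p = 0.0042), Syt1, the calcium sensor of synaptic vesicles, by 0.59 (adjusted p = 0.00288) and Rbfox3 (NeuN) by 0.56 (adjusted p = 0.00223). The summed level of the 19 markers was 19107 to 19250 CPM in sham and 12508 to 16519 CPM in TBI mice. The log2 fold changes of Stmn2 (-0.35) and Dcx (-0.38) lay close to that median, those of Gap43 (-0.24) and Tubb3 (-0.10) above it and that of Tbr1 (-0.73) below it. In bulk tissue fewer neurons and less RNA per neuron cannot be told apart. The part of neuron number in any of these values was not tested.

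Sox4 and Dpysl3 are also made by oligodendrocyte precursors and other glia, and 8 of 9 precursor markers rose with them, with a median of 0.76. For this and the next lists, 16.8% of all genes rose and 11.2% fell. Gpr17, a receptor of committed precursors, rose by 0.96 (adjusted p = 0.00061), and the lineage factors Olig1 and Olig2 by 0.89 (adjusted p = 0.000588) and 0.78 (adjusted p = 0.00143). Pdgfra, the receptor that defines precursors, was at 0.11 (adjusted p = 0.394). The summed level was 276 to 282 CPM in sham and 418 to 525 CPM in TBI mice. All 8 microglia and macrophage markers rose, with a median of 2.44, and all 8 astrocyte and progenitor markers, with a median of 1.01. Their summed levels were 184 to 218 against 661 to 918 CPM and 990 to 1243 against 3944 to 4672 CPM. No marker of these 3 lists was at 0 in any group. Of 7 proliferation genes 5 rose, Mki67 among them by 1.38 (adjusted p = 0.00303). The part of these cells in the levels of Sox4, Dpysl3, Atf3, Cd24a or Pax6 was not tested.

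Markers of neighbouring regions were uneven between libraries. Dentate gyrus markers summed to 24.9 to 27.4 CPM in sham and 25.2 to 106 CPM in TBI mice, and choroid plexus markers to 19.1 to 1055 against 1136 to 1313 CPM. Of 4 dentate markers 1 rose, C1ql2, by 2.34 (adjusted p = 0.0418), which fell to 1.14 (adjusted p = 0.156) without TBI mouse 1 and missed the threshold also without sham mouse 1 (0.0571), 2 (0.117) or 3 (0.121). Of the remaining marker lists, 4 of 7 fibroblast, 3 of 4 endothelial, 1 of 3 T cell, 2 of 4 thalamus and 1 of 4 choroid plexus genes rose, none of them fell, and 1 of 10 embryonic genes rose while 2 fell. Over all genes 16.8% rose and 11.2% fell. Striatum markers summed to 521 to 1021 against 320 to 1247 CPM, and none of 5 changed. Calb2, Eomes, Sp8, Igfbpl1 and Draxin are known from the neurogenic zones or from the olfactory system, and the part of the dissected region in their rise was not tested.

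**Figure D3:**
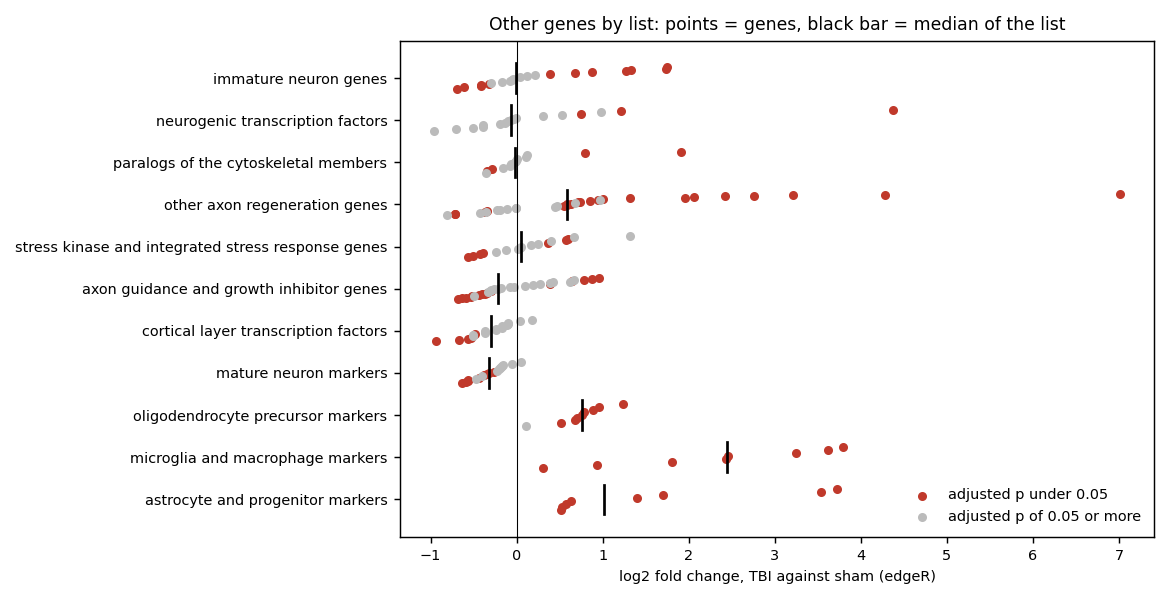
Log2 fold change after TBI for the other genes of 11 lists, 1 point per gene tested (edgeR); red points have an adjusted p-value under 0.05, grey points do not, and the black bar is the median of the list. Immature neuron genes lie on both sides of 0, axon regeneration genes reach from below 0 to 7.01 for Arg1, and cortical layer factors and mature neuron markers lie mostly below 0.

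Of 33 other genes known from axon regeneration, 17 rose, 4 fell and 12 did not pass, with a median of 0.59 (16.8% of all genes rose and 11.2% fell). The list was chosen with this contrast known, so nothing is read from that count. Gal (galanin), a peptide that injured neurons make, rose from 0.0888, 0 and 0.126 CPM to 1.02, 1.40 and 1.95 CPM, a log2 fold change of 4.28 (adjusted p = 0.00195). That value was 3.69 without sham mouse 2 and 4.94 without sham mouse 3. Many of the strongest are also genes of macrophages or astrocytes. Arg1, arginase of polyamine synthesis and of macrophages, rose by 7.01 (adjusted p = 0.000146), by 6.26 without TBI mouse 3 and by 7.67 without sham mouse 1. Cd44, a hyaluronan receptor, rose by 3.21 (adjusted p = 0.000129). Anxa1, a lipid-binding protein, rose by 2.76 (adjusted p = 0.00395), and by 2.06 without TBI mouse 3. Among the 4 that fell, named after its value was seen, Cacna2d1, a subunit of calcium channels, fell by 0.71 (adjusted p = 0.000453).

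Stress kinase and integrated stress response genes, some of which act upstream of Atf3, gave 3 rises and 4 falls among 17 tested (16.8% and 11.2% of all genes), with a median of 0.05. Mapk8 and Mapk9, which encode Jun kinases, fell by 0.57 (adjusted p = 0.00245) and 0.50 (adjusted p = 0.00144). Atf5, a relative of Atf4, rose by 0.57 (adjusted p = 0.00477). Bbc3 (Puma), a death gene, rose by 0.59 (adjusted p = 0.0202), but the adjusted p was 0.0685, 0.087 and 0.0564 without sham mouse 1, sham mouse 3 or TBI mouse 2.

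Among axon guidance and growth inhibitor genes 5 rose and 10 fell of 31 tested (16.8% and 11.2% of all genes), with a median of -0.21. Nrp1, a receptor of class 3 semaphorins that endothelium also makes, rose by 0.95 (adjusted p = 0.0018). Tnfrsf19 (Troy), a coreceptor for myelin inhibitors, rose by 0.87 (adjusted p = 0.000621), and Sema4d, an inhibitory semaphorin, by 0.65 (adjusted p = 0.00146). Slit2, a repellent ligand of Robo receptors, fell by 0.68 (adjusted p = 0.00157). Plxna2, a semaphorin receptor, fell by 0.64 (adjusted p = 0.000423) and Lingo1, a part of the receptor for myelin inhibitors, by 0.59 (adjusted p = 0.00603), both chosen after their values were seen.

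A pair of other settings ended many of the calls named above, with no change of direction. With limma on unfiltered log2(FPKM + 1), a scale that shrinks low genes, Eomes stood at 0.57 (adjusted p = 0.125) and Slit2 at -0.37 (adjusted p = 0.0605). Draxin, Calb2, Pax6, Anxa1, Mki67 and Bbc3 also missed the threshold there (adjusted p 0.0523 to 0.0633), as did Mef2c (0.0611), Etv1 (0.0802), Crmp1 (0.0759) and Elavl3 (0.109). With the equal-variance test on FPKM the young neuron genes Igfbpl1, Calb2, Cd24a and Elavl4 (adjusted p 0.0584 to 0.145), Tubb6 (0.104), Arg1 (0.171) and Anxa1 (0.218) missed it. So did Mef2c (0.0858), Etv1 (0.133), Sema4d (0.0586), Gpr17 (0.051), Olig2 (0.0513), Mki67 (0.0948), Crmp1 (0.092), Elavl3 (0.123) and Bbc3 (0.112). Sp8, Stmn3 and C1ql2 missed it with both (adjusted p 0.109 to 0.372).

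In the batch of 2022, TBI mice given zileuton were compared with TBI mice not given it, to ask whether the drug moved these genes. The study describes the latter as vehicle-treated, while their labels name no vehicle. Dcx was higher in all 3 zileuton mice, Sox11 and Stmn2 were lower, and the remaining 7 genes overlapped. No gene of the 17363 tested reached an adjusted p-value under 0.05 with edgeR (0% of genes) and 27 did with DESeq2, and 1186 genes, 6.83%, had an unadjusted p-value under 0.05. Of the 10 genes 3 had such an unadjusted p-value, and the smallest adjusted p among them was 0.713. The groups did not overlap in 1 gene that was higher and 2 that were lower, and over all genes 6.51% were higher and 7.04% lower without overlap. The median log2 fold change of the 10 was -0.10, against 0.0025 over all genes tested.

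Dcx was read at 19.3, 17.0 and 16.3 CPM in TBI mice A, B and C and at 25.9, 24.0 and 26.5 CPM in zileuton mice A, B and C. Every zileuton library lay above every TBI library. The means were 17.5 ± 1.60 and 25.5 ± 1.28 CPM (SD, n = 3 each) and the log2 fold change was 0.54 ± 0.10 (edgeR, adjusted p = 0.713). DESeq2 gave 0.54 with an adjusted p of 0.0287, within its 27 calls. Over all alternatives the adjusted p of Dcx ran from 0.0287 to 0.977 and its log2 fold change from 0.39 to 0.64.

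Sox11 moved the other way, from 17.5, 17.3 and 16.2 CPM in TBI to 13.4, 15.0 and 12.6 CPM in zileuton mice. The ranges lay close together without overlapping. The log2 fold change was -0.32 ± 0.10 (edgeR, adjusted p = 0.713). Stmn2 stood at 296, 319 and 262 CPM in TBI and 244, 259 and 249 CPM in zileuton mice, where the lowest TBI library nearly met the highest zileuton library. Its log2 fold change was -0.22 ± 0.089 (edgeR, adjusted p = 0.713).

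In this batch log2 fold changes rose with gene length, taken as the estimated count over TPM. The median over all genes went from -0.15 in the shortest bin of 10 to 0.13 in the longest. Dcx and Sox11 both lie in the longest bin, where 97.6% of genes lay below Dcx and 2.13% below Sox11. With the trend in length removed, the log2 fold change of Dcx was 0.39 (adjusted p = 0.928; edgeR) and that of Sox11 -0.47. The direction of both genes held, and Dcx came closer to 0 while Sox11 moved away from it.

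**Figure D4:**
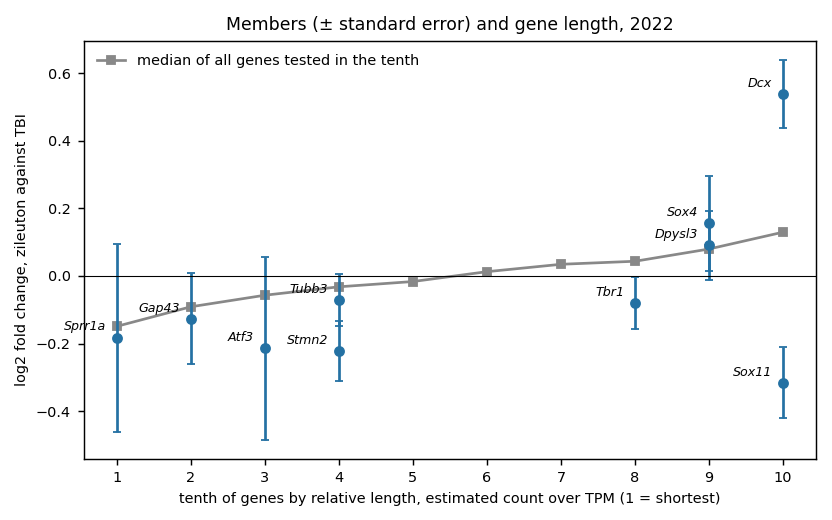
Log2 fold change of zileuton against TBI (edgeR, blue points with standard error) in 10 equal bins of relative gene length, estimated count over TPM, with the median of all genes tested in each bin in grey. The grey line climbs from -0.15 to 0.13, and Dcx (0.54) and Sox11 (-0.32) stand on opposite sides of it in the longest bin.

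Sox4, Atf3 and Sprr1a differed more between mice of a group than between the groups. Atf3 was at 8.26, 13.6 and 16.2 CPM in TBI mice A, B and C and at 14.3, 10.2 and 8.37 CPM in zileuton mice A, B and C. Sprr1a was at 3.29, 4.06 and 5.03 against 4.90, 3.55 and 2.44 CPM, and Sox4 at 21.2, 24.7 and 28.5 against 31.4, 27.5 and 23.9 CPM. All 3 genes were lowest in TBI mouse A and highest in TBI mouse C, and highest in zileuton mouse A and lowest in zileuton mouse C. Arg1 and Cd24a were likewise lowest in TBI mouse A and highest in zileuton mouse A. Their values were 4.15, 16.5 and 12.9 against 16.3, 4.21 and 3.80 CPM for Arg1, and 8.16, 18.6 and 26.4 against 34.5, 21.3 and 15.1 CPM for Cd24a. This was not particular to these genes. Gfap, Cd68 and Mki67 were also lowest in TBI mouse A and highest in zileuton mouse A, whereas Rbfox3 was not. Over all genes tested, deviations from the group mean correlated at 0.28 between TBI mouse A and zileuton mouse C. Between TBI mouse C and zileuton mouse A they correlated at 0.27. The cause was not tested.

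The log2 fold changes with zileuton were 0.16 for Sox4, -0.21 for Atf3 (standard error 0.27) and -0.18 for Sprr1a (standard error 0.28). That of Sprr1a turned to 0.039 without zileuton mouse C, and that of Atf3 to 0.053 with limma on log2(TPM + 1).

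The remaining genes were near level. Tubb3 ranged from 331 to 368 CPM in TBI and from 323 to 334 CPM in zileuton mice, with a log2 fold change of -0.07. Gap43 ranged from 136 to 179 and from 119 to 159 CPM (-0.13), and Tbr1 from 90.3 to 103 and from 86.4 to 96.7 CPM (-0.08, and 0.017 with limma on log2(TPM + 1)). Dpysl3 ranged from 52.2 to 54.4 CPM in TBI and from 49.3 to 64.4 CPM in zileuton mice (0.09).

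Per length, Dcx and Sox11 were level in the TBI mice of 2022, at 3.55 and 3.56 TPM (transcript share per length), and apart in zileuton mice, at 5.52 ± 0.512 and 2.96 ± 0.275 TPM (SD, n = 3 each). The other 8 genes kept their order between the groups, led by Tubb3 at 357 and 354 TPM and followed by Stmn2 and Gap43.

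None of the genes in the lists of immature neuron, regeneration, guidance or marker genes reached an adjusted p-value under 0.05 with zileuton in edgeR. Of the 20 immature neuron genes, 12 had a positive and 8 a negative log2 fold change, the median was 0.08 and 2 had an unadjusted p-value under 0.05. Of the 33 regeneration genes 22 were negative, with a median of -0.06 and 1 at that level. The 19 mature neuron markers had a median of 0.02 and none at that level, and their summed level was 12431 to 14468 CPM in TBI and 12958 to 14390 CPM in zileuton mice. Guidance and inhibitor genes had a median of 0.10, with 24 of 31 positive and 4 at that level. Igfbpl1, at 0.994, 3.09 and 4.39 CPM in TBI and 5.20, 3.27 and 1.99 CPM in zileuton mice, overlapped between the groups, as did Draxin and Calb2.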

How the data were processed

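RNA of brain tissue from 12 mice was sequenced as oligo(dT)-selected read pairs. The submitters' processing notes name HISAT2, Subread, featureCounts, DESeq2 and GRCm39, without roles or versions; annotation and strand setting are not given in the sources used here. For 2018 the authors deposited whole read counts per gene and FPKM; for 2022 the authors deposited estimated counts, of which 13.7% were not whole, and TPM. Totals were 42929862 to 48684674 counts per library in 2018 and 27845562 to 35453257 in 2022; intervals from counts cover counting error only.

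Estimated counts were rounded. Each batch was fitted alone in R 4.3.3 with edgeR 4.0.16 (TMM, filterByExpr, quasi-likelihood test, Benjamini-Hochberg adjustment over all genes tested); the standard error is the log2 fold change over the root of F. CPM are TMM-scaled. The tests were checked on simulated counts. Gene positions came from GENCODE M21 on GRCm38, symbols from a gene name table (34808 and 52081 identifiers matched) and promoters from RefSeq. Alternatives used DESeq2 1.42.0 and limma 3.58.1.

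Members and gene lists were chosen with earlier results of these data known. In each list up to 4 genes were named, those that changed most at an adjusted p-value under 0.05 with no overlap and at least 1 CPM in either group; failing any, the 2 most expressed were named, and paralogs of members and a few markers were always allowed; 8 genes that fell were named after their values were seen; 1 gene that the rule names is not reported here. Figures were drawn with matplotlib 3.10.9. Same-numbered mice did not deviate together (correlations between -0.26 and 0.08), so samples were not paired. Labels do not state whether mice were pooled. Authors' comparison columns were not used.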

Additional observations from a re-analysis of the deposited data

How the results depend on the processing

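With 3 mice a group, 1 library can decide a small change. For TBI against sham, 5479 genes passed the adjusted threshold; leaving out each mouse in turn gave 3848 to 4956, an equal-variance test on FPKM, adjusted in the same way, gave 2625, and the replicate block gave 4337. The share of higher calls was 60.0%, and 71.5% with limma on unfiltered log2(FPKM + 1). For zileuton, 1186 genes had an unadjusted p-value under 0.05; the replicate block gave 729, removing the length trend 795, and leaving out each mouse 689 to 1909 (1909, 689 and 777 without zileuton mouse A, B or C). The share of higher genes among them was 42.9%, 64.0% by limma (log2 TPM, pseudocount 1) and 71.7% by the equal-variance test on TPM. Adjusted calls with zileuton numbered 0, but 27 with DESeq2, 4 without a filter, 4 with limma on log2(TPM + 1) and 3 on log2(TPM + 0.1). The cause of these shifts was not tested.

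Of 169 alternative values of the 10 genes after TBI, 154 stayed close, 14 moved by more than the spread between mice and 1 turned, Sox11 to -0.041 without TBI mouse 2 (0.30 at most when leaving out a mouse). Of 170 with zileuton, 159 kept direction and side of the threshold, 1 passed it (Dcx, DESeq2) and 10 turned. For Atf3 the turned values were 0.053 and 0.058 with limma (pseudocount 1, filtered or not, and 0.1) and 0.030 with the equal-variance test, and for Tbr1 they were 0.017 with all 3 limma fits and 0.014 with that test. Leaving out each mouse gave -0.014 to 0.18 for Dpysl3 and -0.46 to 0.039 for Sprr1a. With the replicate block Stmn2 (0.0595), Dpysl3 (0.0564), Sp8 (0.0713), Stmn3 (0.0702) and Elavl3 (0.0507) missed the adjusted threshold. Among 994 values of the 59 list genes read under the alternatives 896 kept direction and side, 75 lost the threshold, 4 gained it and 19 turned, all near 0. Sox12 gave 0.0086 with library totals and 0.0082 with the equal-variance test, and -0.12 to 0.067 leaving out a mouse. Lor gave -0.0014 without the length trend. Tubb2a gave 0.028 with library totals and the equal-variance test, 0.020 with all 3 limma fits and -0.16 to 0.090 leaving out a mouse. Dpysl5 gave -0.016 with DESeq2's size factors, -0.017 with DESeq2, -0.012 without a filter, -0.013 with the block and -0.12 to 0.17 leaving out a mouse.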

Other observations

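The TBI groups of the 2 batches come from separate tables that were counted differently, so their values are given side by side with no comparison. Dcx stood at 29.6 CPM in the TBI mice of 2018 and at 17.5 CPM in those of 2022, Sprr1a at 1.23 and 4.13 CPM, and Eomes at 2.29 and 0.0924 CPM (means, n = 3 each). Atf3 stood at 9.80 and 12.7 CPM and Tbr1 at 91.8 and 96.9 CPM.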
